A study of Mus musculus with 96 samples.

Results

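The 9 genes described here, Cdkn1a, Mdm2, Ccng1, Phlda3, Bax, Bbc3, Eda2r, Trp53inp1 and Zmat3, are targets of the transcription factor p53. They were chosen by name from the 48795 genes of the count table, each had a single row there, and all 9 passed the filter on low counts in striatum and in cortex. The study measured RNA in striatum and cerebral cortex of the same 48 C57BL/6 mice at 6 months of age by RNA-seq, in 96 libraries. Q140 is a Huntington's disease knock-in with a lengthened CAG repeat in Htt, and Pms1 encodes a DNA mismatch repair protein of the MutL family. The design sets the effect of the knock-in on each tissue beside the effect of losing Pms1, alone and together with the knock-in.

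The 6 genotypes had 8 animals each, 4 females and 4 males. Q140 Pms1 null animals carried the knock-in (Q140 X Pms1-/-), and Pms1 null animals (Pms1-/-) did not. Q140 Pms1 het animals carried the knock-in with a heterozygous Pms1 mutation (Q140 X Pms1+/-), and Pms1 het animals carried that mutation alone (Pms1+/-). Q140 animals carried the knock-in alone, and WT animals neither change. The Q140 allele was heterozygous in all 3 knock-in genotypes, so each of these animals kept a normal Htt allele. The nature of the Pms1 mutation is not described in the labels.

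In dividing and damaged cells p53 binds DNA as a tetramer and switches on genes that halt the cell cycle, start apoptosis or feed back on p53 itself. In the adult brain most neurons no longer divide, and p53 target genes are read there mainly as markers of DNA damage and cellular stress. Mutant huntingtin is known to bind p53, which has made the pathway a subject of study in this disease. Cdkn1a (ENSMUSG00000023067, chr17:29090976-29100727, plus strand) encodes p21, an inhibitor of cyclin-dependent kinases. Ccng1 (ENSMUSG00000020326, chr11:40748552-40755311, minus strand) encodes cyclin G1, and Zmat3 (ENSMUSG00000027663, chr3:32334792-32366014, minus strand) encodes a zinc finger protein that binds RNA. Mdm2 (ENSMUSG00000020184, chr10:117688875-117710758, minus strand) encodes the ubiquitin ligase that marks p53 for degradation. Bax (ENSMUSG00000003873, chr7:45461697-45466898, minus strand) and Bbc3 (ENSMUSG00000002083, chr7:16308393-16318205, plus strand) encode BAX and PUMA, which promote apoptosis at the mitochondrion. Phlda3 (ENSMUSG00000041801, chr1:135766119-135769136, plus strand) encodes a repressor of Akt. Eda2r (ENSMUSG00000034457, chrX:97333840-97377216, minus strand) encodes a receptor of the tumour necrosis factor receptor family. Trp53inp1 (ENSMUSG00000028211, chr4:11156431-11174379, plus strand) encodes a nuclear protein that acts in the p53 stress response and in autophagy. Coordinates are on GRCm38. Bax overlaps the annotated gene Gm45808 on its own strand and Cdkn1a overlaps AC167363.2 on the opposite strand, so the counts of both carry that uncertainty.

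The promoters of the members were searched for the p53 half-site consensus, a motif of 10 letters that reads the same on both strands, in windows from 250 bases before to 50 bases after a gene's start (RefSeq, GRCm38.p6). A window was listed for 7 of the 9 members, and 4 of these 7 held at least 1 half-site. Counted by window, the motif was present in 4 of the 10 windows of these members and in 8.36% of all 32851 windows of this length. Cdkn1a had half-sites 73 and 51 bases before its upstream start, separated by 12 bases. The window of its other start, 2790 bases downstream, held none. A pair with a spacer of at most 13 bases was found in 0.0731% of all windows. The upstream Cdkn1a window is printed whole because Cdkn1a is the member whose RNA changed in the most comparisons below. It lies at chr17:29090729-29091028 on the plus strand, and the capitals mark the half-sites. Only stretches that match the consensus in all 10 letters were counted and marked, and near matches stay in lower case.
Cdkn1a promoter: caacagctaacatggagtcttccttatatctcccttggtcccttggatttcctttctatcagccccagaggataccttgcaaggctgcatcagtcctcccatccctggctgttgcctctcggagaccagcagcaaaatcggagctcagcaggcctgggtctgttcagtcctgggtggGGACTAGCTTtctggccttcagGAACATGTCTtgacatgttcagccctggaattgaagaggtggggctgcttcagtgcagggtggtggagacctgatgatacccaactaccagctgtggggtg
The other 3 members with a half-site are shown as 60 bases around it, on the strand of the gene, for comparison of the motif with that of Cdkn1a. The stretches lie at chr7:45467065-45467124 for Bax (201 bases before the start), chr10:117710910-117710969 for Mdm2 (186 bases before) and chr11:40755437-40755496 for Ccng1 (185 bases before), all on the minus strand.
Bax half-site: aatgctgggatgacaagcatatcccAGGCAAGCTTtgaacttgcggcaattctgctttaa
Mdm2 half-site: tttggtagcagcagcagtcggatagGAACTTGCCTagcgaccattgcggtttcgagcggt
Ccng1 half-site: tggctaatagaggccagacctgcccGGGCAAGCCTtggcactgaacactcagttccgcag
A match of letters is a description of the sequence and shows no binding in these tissues.

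Libraries held 27993751 to 56364535 counts. Levels are given within a gene in CPM, which are counts scaled by library size and TMM factors over the 96 libraries, and between genes in the authors' deposited FPKM, which also divide by gene length. In striatum, Pms1 stood at 3.54 to 4.61 CPM in Q140 Pms1 null and 3.03 to 4.41 CPM in Pms1 null animals, against 4.84 to 5.80 CPM in WT animals. In cortex it stood at 2.97 to 4.06 CPM in Pms1 null animals against 3.31 to 4.40 CPM in WT animals, so RNA over the whole gene does not check the null label. All 10 medium spiny neuron markers were higher in WT striatum than in WT cortex, and all 8 cortical glutamatergic markers were lower (edgeR, adjusted p below 0.05). An animal's code has 2 numbers whose meaning the labels do not give. All 16 animals of the Pms1 null and Q140 Pms1 null genotypes had a first number of 16 or more, which 1 Q140 Pms1 het, 0 Pms1 het, 3 Q140 and 2 WT animals shared. Late codes and Pms1 loss therefore can hardly be told apart.

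Striatum and cortex differed in the levels of 5 of the 9 members, and of 1 more, Trp53inp1, when the tissues of an animal were paired. Between WT tissues, edgeR called 2 members higher in striatum and 3 lower, where 76.0% of all genes tested were called, 38.5% as higher and 37.5% as lower. Ccng1 stood at 40.0 to 46.2 CPM (median 43.0) in WT striatum and 109.7 to 128.5 CPM (median 122.6) in WT cortex, a log2 difference of -1.49 ± 0.04 (SE; edgeR adjusted p = 1.15e-53). Phlda3 stood at 8.23 to 11.0 CPM (median 9.84) in WT striatum and 16.4 to 19.0 CPM (median 17.7) in WT cortex, a difference of -0.88 ± 0.06 (edgeR adjusted p = 1.46e-25). For both genes no WT striatum overlapped a WT cortex, and in all 48 animals of the study the striatum was the lower tissue. Mdm2 ran the other way, at 59.6 to 64.2 CPM (median 61.3) in WT striatum and 43.5 to 53.2 CPM (median 47.8) in WT cortex (0.38 ± 0.04, edgeR adjusted p = 7.47e-16). It was higher in striatum in 48 of 48 animals. Eda2r was higher in striatum in 47 of 48 animals, at 0.243 to 0.624 CPM (median 0.472) in WT striatum and 0.0468 to 0.318 CPM (median 0.239) in WT cortex (1.07 ± 0.27, edgeR adjusted p = 0.000198). These Eda2r levels rest on 11 to 46 counts per striatal library and 2 to 18 per cortical library over all genotypes. Bax was slightly lower in WT striatum, with overlapping tissues (-0.13 ± 0.04, edgeR adjusted p = 0.000981), and was higher in striatum in 2 of 48 animals. The differences of Cdkn1a (-0.18, adjusted p = 0.244) and Trp53inp1 (0.12, adjusted p = 0.263) did not pass edgeR's test, and those of Bbc3 (0.03) and Zmat3 (-0.01) did not either. With the animal as a block, which pairs the tissues of an animal, Trp53inp1 was called as well (0.13 ± 0.04, edgeR adjusted p = 0.00888). It was higher in striatum in 8 of 8 WT animals and in 44 of 48 animals of the study. Over the 9 members the median difference was -0.01, and over all genes it was 0.02.

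**Figure D1:**
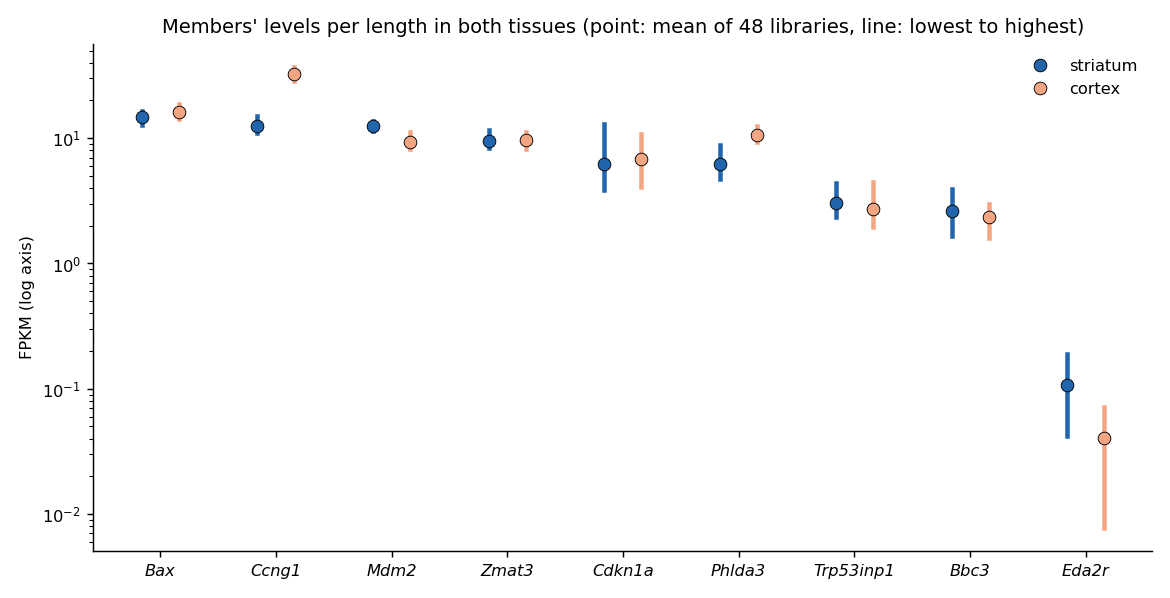
Levels of the 9 members over 96 libraries, in FPKM on a log axis, striatum left of cortex for each gene; each point is the mean of 48 libraries and the line runs from the lowest to the highest. Ccng1 and Phlda3 are lower in striatum, Mdm2 and Eda2r are higher there, and Eda2r lies far below the other 8 genes in both tissues.

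Per unit of gene length, Bax had the highest level in striatum, at 14.8 ± 0.987 FPKM (SD over 48 libraries). Ccng1 (12.5 ± 0.904 FPKM) and Mdm2 (12.4 ± 0.612 FPKM) followed and did not differ beyond their spread. Zmat3 averaged 9.51 ± 0.650 FPKM. Cdkn1a (6.27 ± 1.91 FPKM) and Phlda3 (6.22 ± 0.738 FPKM) were alike within their spread, as were Trp53inp1 (3.04 ± 0.493 FPKM) and Bbc3 (2.64 ± 0.505 FPKM). Eda2r was lowest, at 0.108 ± 0.0354 FPKM. In cortex the order began with Ccng1 at 32.6 ± 1.85 FPKM, then Bax at 16.1 ± 0.868 FPKM and Phlda3 at 10.6 ± 0.772 FPKM. Zmat3 (9.71 ± 0.583 FPKM) and Mdm2 (9.24 ± 0.587 FPKM) did not differ beyond their spread, and neither did Trp53inp1 (2.73 ± 0.534 FPKM) and Bbc3 (2.34 ± 0.337 FPKM). Cdkn1a averaged 6.77 ± 1.58 FPKM in cortex and Eda2r 0.0404 ± 0.0159 FPKM. Members also differed in how much they varied. Over the 48 striatal libraries the coefficient of variation in CPM was 31.8% for Cdkn1a and for Eda2r, 18.4% for Bbc3 and 16.0% for Trp53inp1, against 5.23% for Mdm2 and 5.79% for Bax.

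In Q140 striatum the RNA of the kinase inhibitor gene Cdkn1a fell, and that of the receptor gene Eda2r and the stress response gene Trp53inp1 rose. Of the 9 members, 2 rose and 1 fell in Q140 against WT animals, and 31.3% of all genes tested were called in this comparison, 15.9% as higher and 15.4% as lower. The 3 of 9 calls are close to that background. Cdkn1a ranged from 8.33 to 16.4 CPM (median 10.2) in Q140 striatum and from 11.9 to 18.4 CPM (median 14.45) in WT striatum. The groups overlapped, with 5 of 8 Q140 animals below all WT animals and 7 below the WT median. The gene fell by 0.38 on the log2 scale (SE 0.13, edgeR adjusted p = 0.0167). Eda2r ranged from 0.530 to 0.892 CPM (median 0.690) in Q140 striatum and from 0.243 to 0.624 CPM (median 0.472) in WT striatum. All 8 Q140 animals lay above the WT median and 6 above every WT animal. Eda2r rose by 0.64 ± 0.21 (edgeR adjusted p = 0.0173), with 20 to 41 counts per Q140 library and 11 to 34 per WT library behind it. Trp53inp1 ranged from 17.9 to 27.1 CPM (median 20.15) in Q140 striatum and from 15.4 to 19.2 CPM (median 17.9) in WT striatum. It too had 6 of 8 Q140 animals above every WT animal, and it rose by 0.24 ± 0.09 (edgeR adjusted p = 0.0424). Without the Q140 animal at 27.1 CPM the difference was 0.18 (edgeR adjusted p = 0.131).

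The other 6 members did not pass the test in Q140 striatum. The p53 antagonist Mdm2 had a median of 61.1 CPM in Q140 and 61.3 CPM in WT animals (-0.01, edgeR adjusted p = 0.879). The apoptosis genes stood at a median of 23.6 CPM in Q140 and 23.35 CPM in WT animals for Bax (0.02, edgeR adjusted p = 0.713), and at 5.27 CPM in Q140 and 5.46 CPM in WT animals for Bbc3 (-0.04, edgeR adjusted p = 0.809). The differences of Ccng1 (0.08, adjusted p = 0.165), Zmat3 (-0.08, adjusted p = 0.185) and Phlda3 (-0.01, adjusted p = 0.956) were small beside the spread in edgeR's test. All 8 Q140 animals nevertheless lay below the WT median for Zmat3, at 100.1 to 110.0 CPM in Q140 and 101.1 to 120.4 CPM in WT animals. The median log2 fold change was -0.01 over the members and 0.01 over all genes.

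The striatum itself changed in makeup or in RNA per cell beside these members. The summed medium spiny neuron markers stood at 7828 to 8978 CPM in Q140 and 12430 to 14140 CPM in WT striatum, with 9 of 10 markers lower and 1 higher. Of the 8 microglial markers 6 were lower and of the 8 endothelial markers 5 were lower in Q140 striatum (edgeR). Microglial sums ran from 372.5 to 435.3 CPM in Q140 and from 429.5 to 466.8 CPM in WT animals. Astrocyte sums ran from 3164 to 3464 CPM in Q140 and from 3455 to 3768 CPM in WT animals, with 1 of 8 markers lower (edgeR). In bulk tissue fewer cells of a type and less RNA per cell cannot be told apart, and the part of these shifts in the member changes was not tested.

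**Figure D2:**
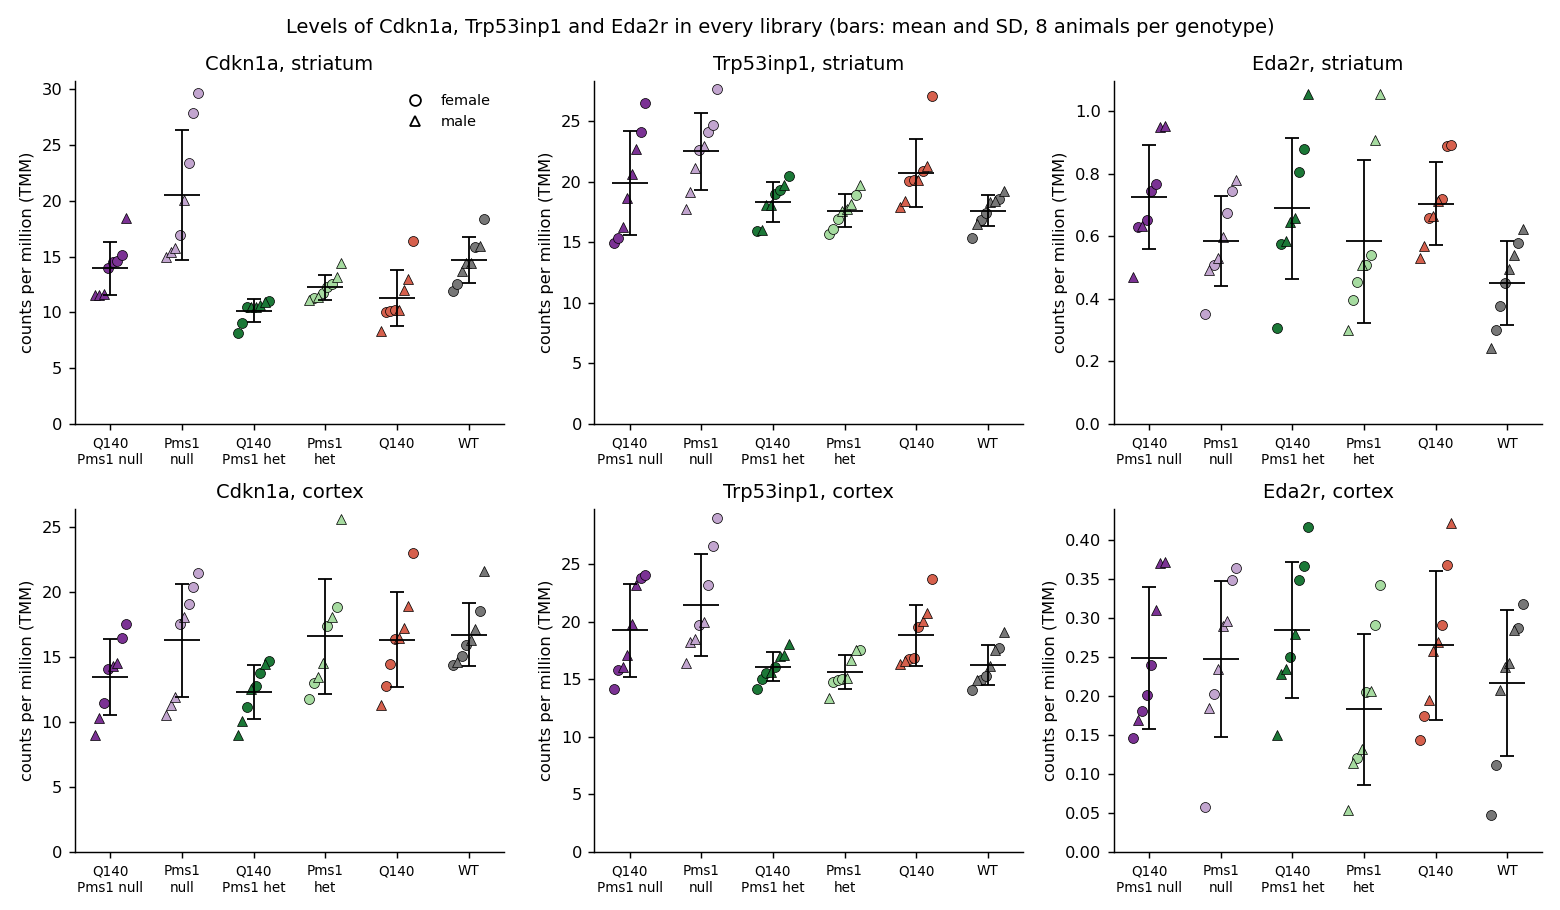
CPM of Cdkn1a, Trp53inp1 and Eda2r by genotype in striatum (top) and cortex (bottom), with circles for females, triangles for males and bars for the mean and SD of 8 animals. In striatum, Cdkn1a lies lower in each knock-in genotype than in the genotype to its right without the knock-in, and 3 Pms1 null females lie above all other animals.

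Striatal Cdkn1a had a lower median with the knock-in on each Pms1 background, and the difference passed the test on the intact and on the null background. Over the 3 knock-in genotypes against the 3 without the knock-in, Cdkn1a fell by 0.40 (SE 0.07, edgeR adjusted p = 1.63e-05) and Eda2r rose by 0.39 ± 0.12 (edgeR adjusted p = 0.00873). These were 2 of 9 members, where 42.5% of all genes were called, 22.5% as higher and 20.0% as lower. In Q140 Pms1 null striatum Cdkn1a ranged from 11.6 to 18.4 CPM (median 14.2), against 15.0 to 29.7 CPM (median 18.5) in Pms1 null striatum. It fell by 0.55 (SE 0.12, edgeR adjusted p = 0.00225), was below the Pms1 null median in 8 of 8 animals, and was the only called member where 11.1% of genes were called and 5.47% were lower. In Q140 Pms1 het striatum Cdkn1a ranged from 8.18 to 11.0 CPM (median 10.5), against 11.1 to 14.45 CPM (median 12.0) in Pms1 het striatum. Those groups did not overlap, yet the difference of -0.27 ± 0.13 did not pass the fit over all 48 libraries (edgeR adjusted p = 0.137). In edgeR no member was called between Q140 Pms1 het and Pms1 het striatum, where 24.9% of genes were called. Bax was called there without scaling factors (0.12, edgeR adjusted p = 0.0156) and on FPKM (limma adjusted p = 0.0152), and Zmat3 in males alone (-0.16, edgeR adjusted p = 0.0184). Eda2r had medians of 0.700 CPM in Q140 Pms1 null and 0.566 CPM in Pms1 null animals, and of 0.652 CPM in Q140 Pms1 het and 0.508 CPM in Pms1 het animals. The 3 differences between single genotypes were not tested against each other, apart from the interactions given below.

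Loss of Pms1 without the knock-in went with higher Cdkn1a and Trp53inp1 in striatum, and neither call held without 3 of the 8 Pms1 null animals. In Pms1 null against WT striatum 2 of 9 members rose and none fell, where 7.91% of all genes were called and 4.01% were higher. The comparison shares its WT animals with that of Q140 against WT. Cdkn1a ranged from 15.0 to 29.7 CPM (median 18.5) in Pms1 null striatum and from 11.9 to 18.4 CPM (median 14.45) in WT striatum. All 8 Pms1 null animals were above the WT median and 4 above every WT animal, and the gene rose by 0.47 ± 0.12 (edgeR adjusted p = 0.0132). Trp53inp1 ranged from 17.8 to 27.7 CPM (median 22.8) in Pms1 null striatum and from 15.4 to 19.2 CPM (median 17.9) in WT striatum. It rose by 0.36 ± 0.09 (edgeR adjusted p = 0.013), with 6 of 8 Pms1 null animals above every WT animal. The other 7 members did not pass the test.

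The 3 Pms1 null females whose codes have the first number 22 held the 3 highest striatal Cdkn1a levels of all 48 animals. The lowest of the 3 stood at 23.4 CPM, against 20.1 CPM in the highest of the other 45 animals. Without these 3 animals, a choice made after seeing the data, no member was called between Pms1 null and WT striatum. With fewer animals the share of all genes called there also fell, from 7.91% to 2.95%. Cdkn1a then differed by 0.18 (edgeR adjusted p = 0.398) and Trp53inp1 by 0.25 (edgeR adjusted p = 0.175). The fall of Cdkn1a between Q140 Pms1 null and Pms1 null striatum was then -0.26 (edgeR adjusted p = 0.236). Over all knock-in genotypes it was still called, at -0.30 (edgeR adjusted p = 0.00015), as was the rise of Eda2r at 0.36 (edgeR adjusted p = 0.0237). In Pms1 null striatum Cdkn1a averaged 16.6 CPM in males and 24.4 CPM in females, against 14.65 CPM in WT males and 14.7 CPM in WT females. With a term for late codes in the fit, Cdkn1a differed by 0.38 between Pms1 null and WT striatum (edgeR adjusted p = 0.177), and Trp53inp1 was still called.

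A set of genes that respond to glucocorticoid hormones moved in the same comparison. In Pms1 null against WT striatum 9 of its 13 genes rose and none fell (edgeR), where 4.01% of all genes were called as higher. The median log2 fold change was 0.48 over the list and 0.00 over all genes. The summed level of the 13 genes ran from 661.9 to 1051 CPM in Pms1 null and from 626.8 to 761.8 CPM in WT striatum. The 3 animals of number 22 held 1051, 982.6 and 1006 CPM, against 661.9 to 809.3 CPM in the other 5 Pms1 null animals. Without these 3 animals 0 of the 13 genes were called in edgeR, where 2.95% of all genes were called. Between Q140 and WT striatum none of the 13 genes rose and 1 fell, where 15.4% of all genes were called as lower. Between Q140 Pms1 null and Pms1 null striatum 5 of the 13 fell, where 5.47% of all genes were called as lower. When the same 3 animals were left out 0 of the 13 were called in either direction, where 4.67% of all genes were. The part of this shift in the rise of Cdkn1a and Trp53inp1 was not tested.

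No member passed the test for loss of Pms1 within the knock-in. Between Q140 Pms1 null and Q140 striatum edgeR called 0 of 9 members, where 7.10% of all genes were called, and DESeq2 called 0 as well. Bbc3 was nearest, at 4.82 to 8.20 CPM (median 6.46) in Q140 Pms1 null and 3.82 to 6.31 CPM (median 5.27) in Q140 striatum (0.31 ± 0.11, edgeR adjusted p = 0.0831). Cdkn1a ranged from 11.6 to 18.4 CPM in Q140 Pms1 null and from 8.33 to 16.4 CPM in Q140 striatum. All 8 Q140 Pms1 null animals lay above the Q140 median, and the difference of 0.31 ± 0.13 did not pass (edgeR adjusted p = 0.146). Over both backgrounds, Pms1 null genotypes had higher Cdkn1a than their counterparts with intact Pms1 (0.39 ± 0.09, edgeR adjusted p = 0.00275), and 10.0% of all genes were called in that comparison, 5.61% as higher. Cdkn1a was the only member called, at 0.24 without the 3 animals of number 22 (edgeR adjusted p = 0.0477) and at 0.30 with the late-code term (edgeR adjusted p = 0.181). The summed medium spiny neuron markers stood at 9238 to 11050 CPM in Q140 Pms1 null and 7828 to 8978 CPM in Q140 striatum, with 9 of 10 markers higher.

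Whether the knock-in effect itself differed between Pms1 null and intact backgrounds was tested as an interaction. No member was called in striatum, where 5.05% of genes were. Trp53inp1 came nearest, with a knock-in effect 0.41 lower on the null background (SE 0.13, edgeR adjusted p = 0.0519). DESeq2 called it (adjusted p = 0.0208), and without the 3 animals of number 22 it was -0.31 in edgeR (adjusted p = 0.214). The interaction for Cdkn1a was -0.17 (edgeR adjusted p = 0.662) and that for Bbc3 was 0.31 (edgeR adjusted p = 0.272). No member was called for a heterozygous Pms1 mutation in striatum, either alone against WT or with the knock-in against Q140, and 0% of genes were called by edgeR in either comparison, with 1882 and 1026 at an unadjusted p below 0.05. Cdkn1a in Pms1 het striatum stood at 11.1 to 14.45 CPM (median 12.0) against 11.9 to 18.4 CPM (median 14.45) in WT striatum, a difference of -0.26 (edgeR adjusted p = 0.498).

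**Figure D3:**
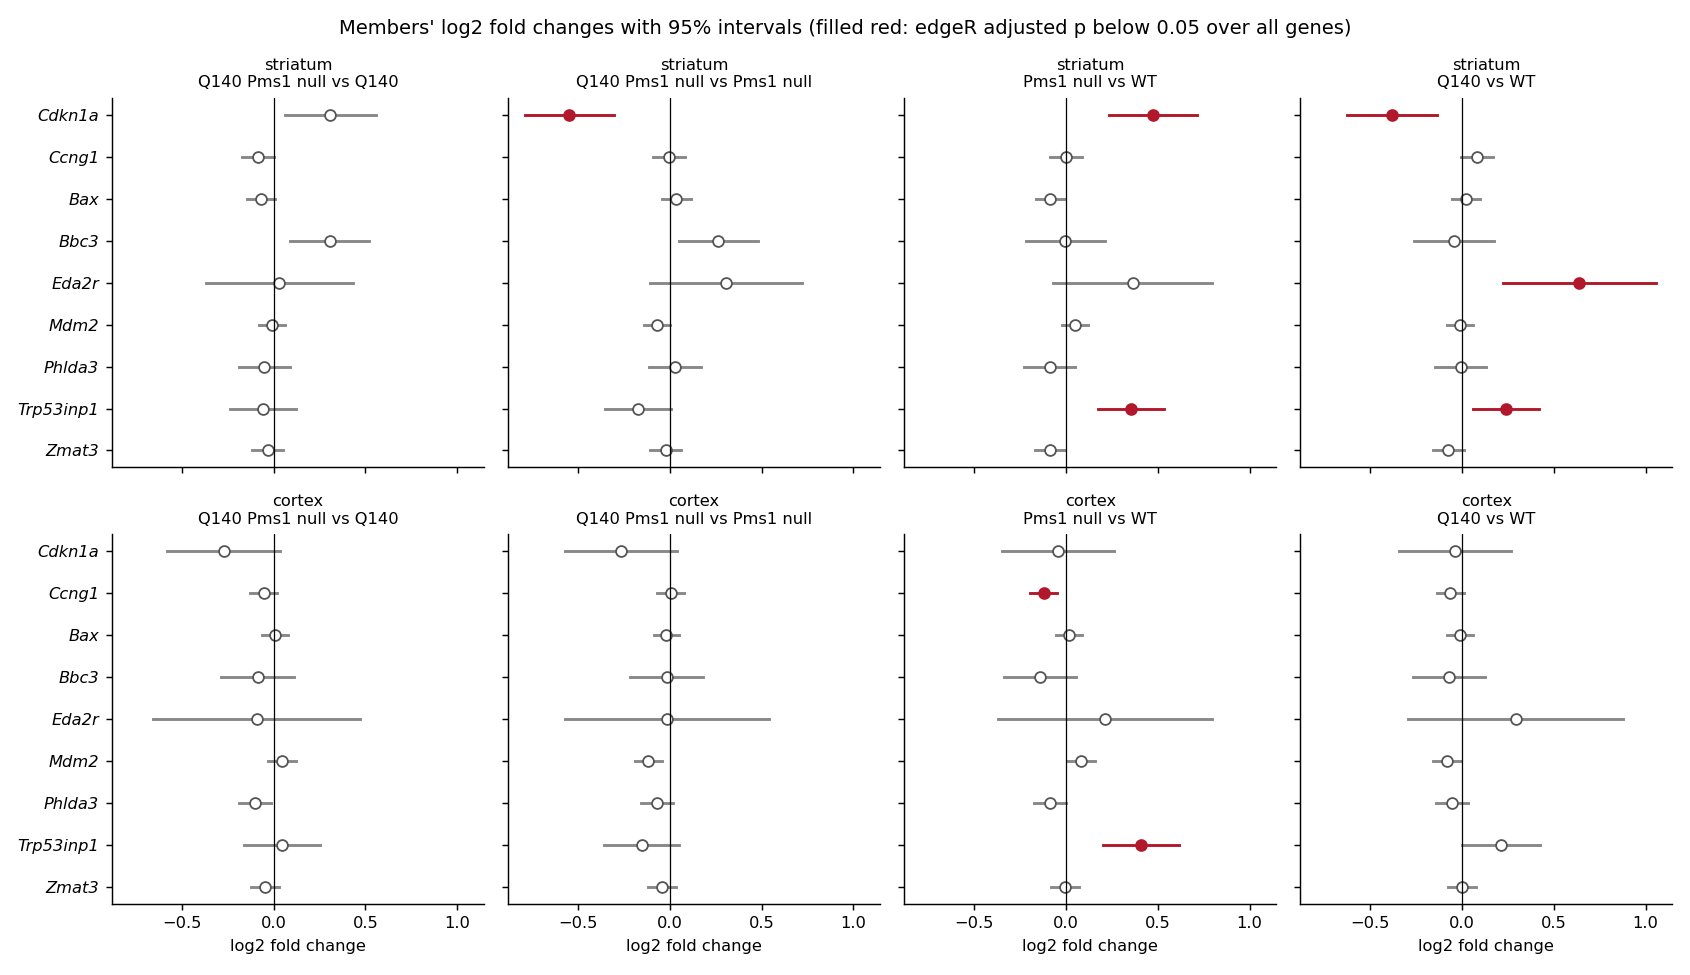
Log2 fold changes of the 9 members with 95% intervals in 4 comparisons, the first-named genotype over the second, striatum above cortex; filled red points passed edgeR's adjusted p of 0.05. Called falls of Cdkn1a (-0.38 and -0.55) and called rises of Cdkn1a (0.47), Trp53inp1 (0.24 and 0.36) and Eda2r (0.64) are in striatum, and in cortex Ccng1 (-0.12) and Trp53inp1 (0.41) are filled for Pms1 null against WT.

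In cortex none of these 3 genes passed the test for the knock-in. Between Q140 and WT cortex edgeR called none of the 9, where 0.0428% of all genes were called. The count at an unadjusted p below 0.05 was 1 of 9 members, Mdm2 (-0.08, edgeR adjusted p = 0.646), and 1369 of all 18711 genes tested. DESeq2 called no member. Trp53inp1 ranged from 16.3 to 23.7 CPM (median 18.2) in Q140 cortex and from 14.1 to 19.1 CPM (median 15.7) in WT cortex. All 8 Q140 animals lay above the WT median, and the difference of 0.21 ± 0.11 did not pass (edgeR adjusted p = 0.698). Cdkn1a ranged from 11.3 to 23.0 CPM (median 16.4) in Q140 cortex and from 14.4 to 21.6 CPM (median 16.1) in WT cortex. Over all knock-in genotypes Mdm2 was the only member called in cortex, lower by a small amount (-0.08 ± 0.02, edgeR adjusted p = 0.0326), where 1.73% of genes were called and 1.03% were lower. Its medians were 46.3, 45.4 and 45.6 CPM in Q140 Pms1 null, Q140 Pms1 het and Q140 cortex, against 48.7, 48.9 and 47.8 CPM in Pms1 null, Pms1 het and WT cortex. Without the 3 animals of number 22 the difference was -0.05 (edgeR adjusted p = 0.224). Within the heterozygous and null Pms1 backgrounds edgeR called no member in cortex, where 0.112% of genes were called between Q140 Pms1 het and Pms1 het and 0.0428% between Q140 Pms1 null and Pms1 null. Zmat3 came nearest in cortex, at 95.95 to 123.9 CPM (median 109.1) in Q140 Pms1 het and 113.5 to 135.0 CPM (median 121.3) in Pms1 het animals (-0.16 ± 0.04, edgeR adjusted p = 0.0599), and DESeq2 called it (-0.17, adjusted p = 0.0198). In 6 of 8 Q140 Pms1 het animals it lay below every Pms1 het animal.

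The knock-in effect was compared between the tissues in a fit of all 96 libraries. No member's effect in Q140 against WT animals differed between striatum and cortex, where 13.3% of all genes did. Nor did any over all knock-in genotypes, where 22.8% did. The striatal effect minus the cortical one was 0.13 ± 0.06 for Ccng1 (edgeR adjusted p = 0.143) and, over all knock-in genotypes, 0.05 for Mdm2 (edgeR adjusted p = 0.223). With the animal as a block each of these was called, Ccng1 at 0.13 ± 0.05 (edgeR adjusted p = 0.0392) and Mdm2 at 0.05 ± 0.02 (edgeR adjusted p = 0.0468). The fall of Cdkn1a was called in striatum and not in cortex, and this difference between the tissues was not called in either fit.

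Loss of Pms1 in cortex went with a rise of Trp53inp1 and a slight fall of Ccng1. These were 2 of 9 members between Pms1 null and WT cortex, where 9.58% of genes were called, 5.31% as higher and 4.26% as lower. Trp53inp1 ranged from 16.4 to 29.0 CPM (median 19.8) in Pms1 null cortex and from 14.1 to 19.1 CPM (median 15.7) in WT cortex, with 5 of 8 Pms1 null animals above every WT animal. It rose by 0.41 ± 0.11 (edgeR adjusted p = 0.0119), in the animals of the striatal comparison. Ccng1 ranged from 99.8 to 121.5 CPM (median 110.7) in Pms1 null cortex and from 109.7 to 128.5 CPM (median 122.6) in WT cortex. The groups overlapped, and it fell by 0.12 (SE 0.04, edgeR adjusted p = 0.0304). Without the 3 animals of number 22 neither was called, at 0.19 for Trp53inp1 (edgeR adjusted p = 0.347) and -0.11 for Ccng1 (edgeR adjusted p = 0.137). Over both knock-in states the Pms1 null genotypes had lower Ccng1 (-0.09 ± 0.03, edgeR adjusted p = 0.0171) and Phlda3 (-0.09 ± 0.03, edgeR adjusted p = 0.0314) and higher Trp53inp1 (0.23 ± 0.08, edgeR adjusted p = 0.0328), where 15.9% of genes were called, 8.85% as higher and 7.09% as lower. Without those 3 animals only Ccng1 was called among them (-0.08, edgeR adjusted p = 0.041). With a term for late codes in the fit edgeR called no member, either between Pms1 null and WT cortex (0.40 for Trp53inp1, adjusted p = 0.11; -0.13 for Ccng1, adjusted p = 0.111) or over both knock-in states. The glucocorticoid-responsive sum ran from 630.2 to 909.1 CPM in Pms1 null and from 611.1 to 736.6 CPM in WT cortex, with 4 of 13 genes higher. The 3 animals of number 22 held 867.0, 871.9 and 909.1 CPM, against 630.2 to 760.4 CPM in the other 5 Pms1 null animals. When these 3 were left out 0 of the 13 genes were called, where 2.24% of all genes were called. The part of this shift in the member changes was not tested. Between Q140 Pms1 null and Q140 cortex no member was called, where 0.0107% of genes were.

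Zmat3 was the only member called between male and female striatum, where 6.16% of genes were called and 3.31% were lower. It ranged from 92.8 to 118.8 CPM in 24 males and from 93.3 to 127.3 CPM in 24 females, and was lower in males (-0.10 ± 0.02, edgeR adjusted p = 0.0151). In cortex 0 of 9 were called by edgeR and by DESeq2, where 5.36% of genes were.

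The wider p53 network did not move in a single direction between Q140 and WT striatum. Of 76 other targets, relatives and regulators of p53, 73 were tested in striatum, of which 11 rose and 13 fell between Q140 and WT animals. These 24 of 73 genes are close to the 31.3% called among all genes. The median log2 fold change was -0.00 over this list and 0.01 over all genes. Rprm, a target that acts in cell-cycle arrest, rose by 0.97 ± 0.12 (edgeR adjusted p = 5.7e-09). Sfn, which encodes the arrest protein 14-3-3 sigma, fell by 0.80 (SE 0.10, edgeR adjusted p = 6.32e-09), and Gadd45a, a growth-arrest gene, fell by 0.49 (SE 0.10, edgeR adjusted p = 8.64e-05). The apoptosis gene Bid rose by 0.34 ± 0.08 (edgeR adjusted p = 0.00136). Between Q140 Pms1 null and Q140 striatum 5 rose and 3 fell, among them Sfn (0.34), Ephx1 (0.33) and Rprm (-0.39) (edgeR), where 7.10% of all genes were called. These comparisons share the Q140 animals. Between Pms1 null and WT striatum 7 rose and 1 fell, where 7.91% of all genes were called and 4.01% were higher. Without the 3 animals of number 22, 2 rose and 1 fell, where 2.95% of all genes were called.

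Trp53, which encodes p53 itself, averaged 25.0 ± 0.950 CPM in Q140 and 23.5 ± 0.882 CPM in WT striatum (SD, n = 8 each). The difference of 0.09 ± 0.04 did not pass (edgeR adjusted p = 0.0545), and over all knock-in genotypes a difference of 0.09 ± 0.02 did (edgeR adjusted p = 0.000771). Mdm4, which encodes a p53 inhibitor and partner of MDM2, rose by 0.12 ± 0.02 in Q140 striatum (edgeR adjusted p = 4.03e-05). The p53 relatives Trp63 (0.62, adjusted p = 0.0668) and Trp73 (-0.04, adjusted p = 0.937) were not called by edgeR between Q140 and WT striatum. In cortex no gene of the network was called between Q140 and WT animals, where 0.0428% of all genes were. There 3 rose and 6 fell between Pms1 null and WT animals, close to the 9.58% called among all genes. When the 3 animals of number 22 were left out, 1 rose and 2 fell, where 2.24% of all genes were called. Of 24 genes of DNA damage signalling, 4 rose and 4 fell between Q140 and WT striatum, again close to the 31.3% of all genes. Prkdc and Xrcc5, which encode subunits of the DNA-dependent protein kinase, differed by 0.30 and 0.31. Clspn, a cofactor of checkpoint kinase 1, fell by 1.21 (SE 0.08, edgeR adjusted p = 5.85e-16). It averaged 12.95 CPM in Q140, 17.8 CPM in Q140 Pms1 null and 29.9 CPM in WT striatum, and 0.379 CPM in WT cortex. The part of the lower medium spiny neuron markers in this fall was not tested.

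Members did not vary as a single unit among animals. After genotype and sex were removed, the 36 pairs of members had a median correlation of -0.04 in striatum and -0.04 in cortex over the 48 animals of a tissue. Of these, 7 pairs in striatum and 6 in cortex passed a permutation test of Pearson's r, adjusted over the 36 pairs of a tissue. Bbc3 and Mdm2 had the strongest relation in striatum, with r = -0.69 and rho = -0.676 (adjusted permutation p = 0.00036), and r = -0.674 without the 2 animals farthest from the Bbc3 median. Mdm2 and Zmat3 varied together (r = 0.559, rho = 0.555, adjusted permutation p = 0.00072; r = 0.552 without the 2 farthest animals), as did Ccng1 and Trp53inp1 (r = 0.527, rho = 0.503, adjusted permutation p = 0.00126; 0.511 without those 2). Cdkn1a and Trp53inp1 varied together in striatum (r = 0.485, rho = 0.476, adjusted permutation p = 0.00353; 0.371 without the 2 farthest animals). They did so in cortex too (r = 0.551, rho = 0.559, adjusted permutation p = 0.00108; 0.55 without those 2). Bbc3 ran against Cdkn1a in cortex (r = -0.555, rho = -0.583, adjusted permutation p = 0.00108; -0.536 without those 2). Among all pairs of genes the median r was 0.00101 in striatum and 0.00552 in cortex, and 2.17% and 3.85% of pairs exceeded 0.4. How many of all pairs would pass the permutation test was not computed, so the 7 and 6 pairs have no like background. Without the 3 animals of number 22 the relation of Cdkn1a and Trp53inp1 had r = 0.384 in striatum and 0.5 in cortex.

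**Figure D4:**
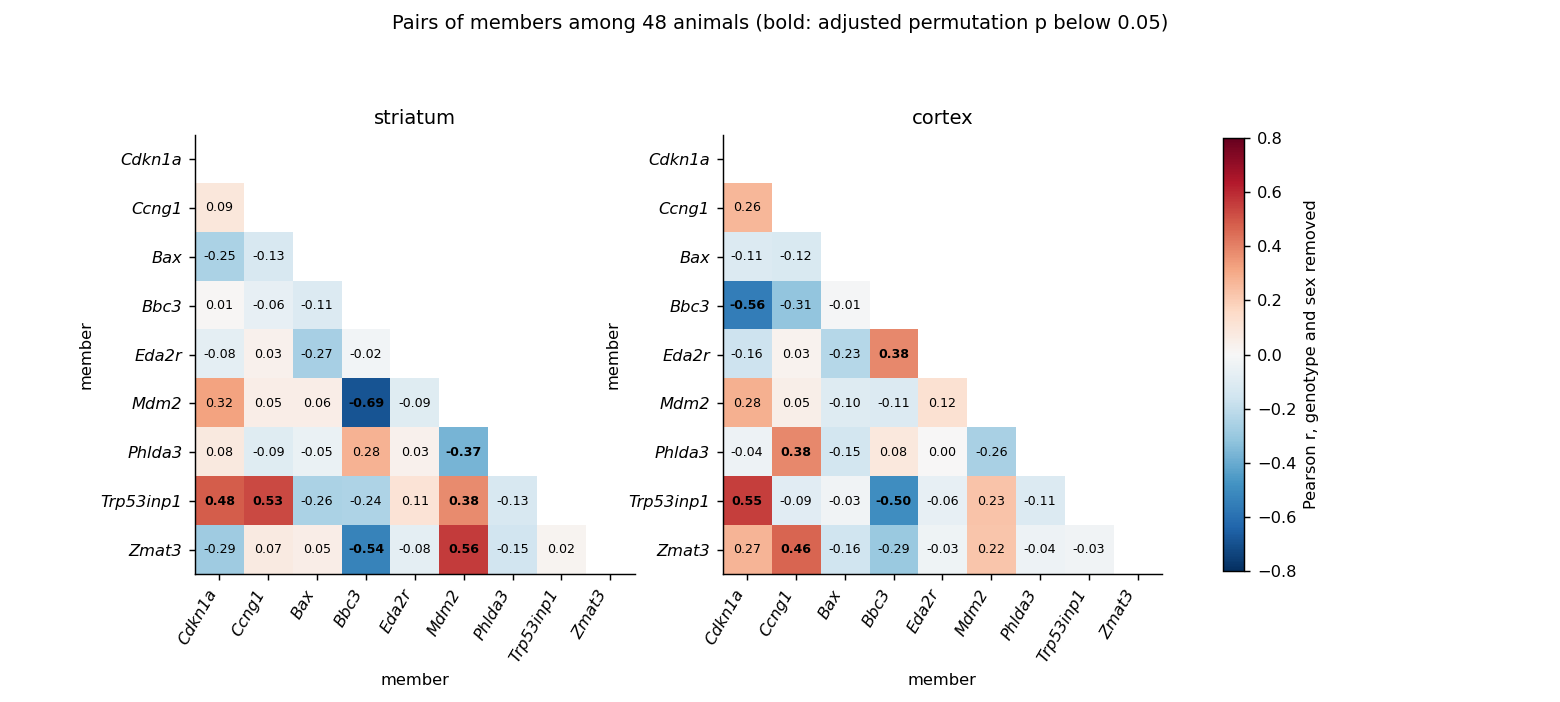
Pearson correlations of the 36 pairs of members over 48 animals, on log2 CPM after removal of genotype and sex, striatum left of cortex, with pairs that passed the adjusted permutation test in bold. Bbc3 is negatively related to Mdm2 in striatum (-0.69) and to Cdkn1a in cortex (-0.555), and Cdkn1a is positively related to Trp53inp1 in both tissues.

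Some members kept an animal's level across its tissues. Among 9 relations tested, 4 passed after adjustment. The share of all genes that would pass the same test was not computed, so the count is not shown to be particular to these members. Trp53inp1 in striatum followed Trp53inp1 in the cortex of the same animal most closely, with r = 0.824, rho = 0.779 and r = 0.809 without the 2 animals farthest from the median (adjusted permutation p = 4.5e-05). Mdm2 (r = 0.598, rho = 0.577, 0.519 without the 2 farthest animals; adjusted permutation p = 4.5e-05) and Zmat3 (r = 0.447, rho = 0.406, 0.35 without those 2; adjusted permutation p = 0.00408) followed. Ccng1 had r = 0.362 and rho = 0.391 (0.393 without those 2; adjusted permutation p = 0.0274). Cdkn1a (r = 0.264, adjusted permutation p = 0.0901) and Eda2r (r = -0.0235) did not pass. Without the 3 animals of number 22 the r of Trp53inp1 was 0.812 and that of Mdm2 was 0.409.

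Trp53inp1, Cdkn1a, Mdm2 and Bbc3 were related to the glucocorticoid-responsive genes in both tissues, after genotype and sex were removed. Other genes were not tested against that list, so this is not shown to be particular to the members. Of 216 relations between members and summed marker lists, Trp53inp1 had the highest with that list in striatum (r = 0.736, rho = 0.766, 0.712 without the 2 farthest animals; adjusted permutation p = 0.00036). Its value in cortex was close (r = 0.73, rho = 0.714, 0.692 without those 2; adjusted permutation p = 0.00036). Cdkn1a followed in striatum (r = 0.648, rho = 0.611, 0.649 without those 2) and in cortex (r = 0.654, rho = 0.651, 0.619 without those 2), both with an adjusted permutation p of 0.00036. Mdm2 was positively related to the list in striatum (r = 0.625, rho = 0.625, 0.594 without those 2; adjusted permutation p = 0.00036) and Bbc3 negatively (r = -0.461, rho = -0.494, -0.442 without those 2; adjusted permutation p = 0.0144). In cortex Mdm2 had r = 0.546 (rho = 0.548; adjusted permutation p = 0.00154) and Bbc3 r = -0.505 (rho = -0.459; adjusted permutation p = 0.00432). Without the 3 animals of number 22 the striatal values were 0.717 for Trp53inp1, 0.502 for Cdkn1a, 0.492 for Mdm2 and -0.367 for Bbc3. Some members were related to cell-type lists as well. Phlda3 in striatum was positively related to the microglial (r = 0.531, adjusted permutation p = 0.00189), oligodendrocyte precursor (r = 0.53, adjusted permutation p = 0.00288) and oligodendrocyte markers (r = 0.52, adjusted permutation p = 0.00259). Zmat3 in cortex was positively related to the cortical glutamatergic (r = 0.636, adjusted permutation p = 0.00036) and medium spiny neuron markers (r = 0.539, adjusted permutation p = 0.00192). Trp53inp1 was negatively related to the mural (r = -0.503, adjusted permutation p = 0.00432) and endothelial markers (r = -0.417, adjusted permutation p = 0.0337) in striatum. For the endothelial markers the rank correlation did not pass (rho = -0.348, adjusted permutation p = 0.12). In cortex Trp53inp1 was positively related to the choroid plexus markers (r = 0.498, adjusted permutation p = 0.00288), with r = 0.318 without the 2 farthest animals. Its rank correlation did not pass (rho = 0.335, adjusted permutation p = 0.139). The choroid plexus sum reached 619.1, 774.1 and 612.4 CPM in Pms1 null, Q140 and Q140 Pms1 null cortex. In the other 3 genotypes its highest cortical value was 22.59 CPM.

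**Figure D5:**
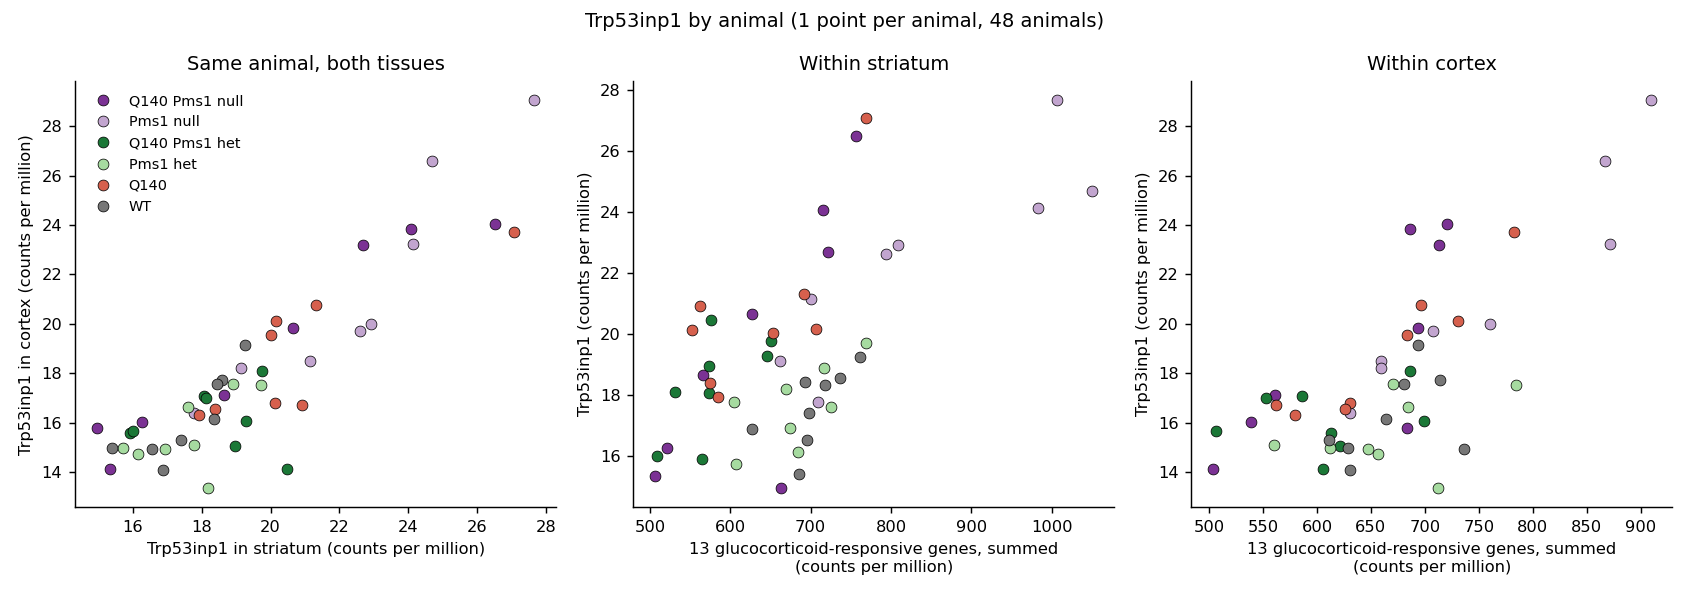
Trp53inp1 in CPM for each of the 48 animals, coloured by genotype: cortex against striatum of the same animal (left), and against the summed CPM of 13 glucocorticoid-responsive genes in striatum (middle) and cortex (right). The points rise together in all 3 panels, and with genotype and sex removed r was 0.824, 0.736 and 0.73 from left to right.

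The genes most like each member were found by Pearson's r of log2 CPM, centred by sex, over the 48 libraries of a tissue, and are given as a description. Among 13217 genes compared in striatum, Trp53inp1 was closest to Tsc22d3 (0.861) and Hif3a (0.847), both on the glucocorticoid-responsive list, as were 8 of its 50 closest genes in all. In cortex it was closest to Arrdc2 (0.881) and Sult1a1 (0.869). Cdkn1a was closest to Smg5 (0.849) and Tmprss6 (0.827) in striatum and to Camk1g (0.81) and Cbln4 (0.752) in cortex. Mdm2 was closest to Skp2 (0.781) in striatum and to Ncbp3 (0.785) in cortex, and Zmat3 to Man2a1 (0.791) in striatum and Luzp1 (0.877) in cortex. Ccng1 was closest to Ccar1 (0.699) in striatum and Mrpl51 (0.823) in cortex. Phlda3 was closest in striatum to the myelin genes Mag (0.732) and Gal3st1 (0.727), and in cortex to Hapln4 (0.696). Bbc3 was closest to Sox12 (0.755) in striatum and Nln (0.667) in cortex, and Bax to Mrpl20 (0.714) in striatum and Rps18 (0.629) in cortex. Eda2r, the least expressed member, had the weakest likeness, to Stx18 (0.632) in striatum and to Mccc1os (0.491) in cortex.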

How the data were processed

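The deposited counts are whole numbers of reads per gene and library, not normalized, as their values show. The deposited FPKM values were made by the authors and divide by library size and gene length. Per the labels' protocols, total RNA was purified on RNeasy columns and sequenced from stranded TruSeq libraries. HTSeq 0.12.3, SAMtools 1.10, STAR 2.7.5c and the builds mm10 and GRCm38 are listed in the submitters' processing notes, with no role for any of them. The sources used here do not say how strand was handled in counting or which annotation served. Gene positions come from GENCODE M21, which held 48349 of the 48795 identifiers, and 126 gene names occur more than once, none of them a member's.

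Members and lists were chosen with earlier results of these data known. The main test was that of edgeR 4.0.16 (run in R 4.3.3) on the counts (TMM, filterByExpr by genotype, robust quasi-likelihood fit of genotype and sex) over the 48 libraries of a tissue, 18890 genes in striatum and 18711 in cortex. The contrasts between tissues used all 96 libraries and 19723 genes. P-values were adjusted by Benjamini-Hochberg over all genes of a comparison, and a call is an adjusted p below 0.05. Intervals are normal 95% intervals. Correlations used log2 CPM (prior count 2) after removal of genotype and sex, with two-sided permutation tests of 100000 resamples, whose smallest p is 1e-05 before adjustment. DESeq2 1.42.0, limma 3.58.1 on counts and on log2(FPKM + 0.1) and log2(FPKM + 1), other scalings and filters, late codes, single sexes and left-out animals were the alternatives.

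In simulated counts for Q140 against WT striatum over 18890 genes the fit recovered 83% of genes changed 1.5-fold and 92% of those changed 2-fold. There 100 genes were changed at each fold, and 5.91% of the calls were false. Changes smaller than 1.5-fold were not simulated, so these shares do not cover them. No 2 libraries agreed within sampling noise (lowest chi-square per degree of freedom 3.17 over the 144 pairs that share genotype, tissue and sex). Both tissues came from the same animals, per the animal codes in the labels. As deviations from the group mean, an animal's 2 tissues correlated by a median of 0.123; the lowest value was 0.0533, 33 of 48 were over 0.1, and 44 animals correlated best with themselves. Named genes were the 9 members. From each list, up to 3 called genes that rose most and 3 that fell most, with a mean of at least 1 CPM, could be named in the comparisons of the knock-in and of Pms1 loss, beside Trp53, Mdm4, Trp63 and Trp73 whatever their values. A selection of these is printed. For likeness, up to 2 genes were named per member and tissue. Counting error is covered by the tests across animals, and p-values take animals as independent although some share the first number of their code.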

Additional observations from a re-analysis of the deposited data

Results flagged for a closer look

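A sample stood apart from the other 7 of its group in 9 of 108 groups of member and genotype within a tissue, by Dixon's test at the 95% level. About 1 in 20 groups is marked so by chance. In striatum, Trp53inp1 reached 27.1 CPM in a Q140 animal whose group otherwise ran from 17.9 to 21.3 CPM. Without that animal Trp53inp1 was not called between Q140 and WT striatum, as given above. Bbc3 reached 7.27 CPM in a Pms1 het animal (others 4.28 to 5.25 CPM), and Phlda3 reached 13.1 CPM in a Q140 Pms1 het animal (others 9.1 to 10 CPM). In cortex, Bbc3 stood at 4.09 CPM in a Q140 Pms1 het animal (others 5.05 to 5.7 CPM) and at 6.42 CPM in a Q140 animal (others 4.51 to 5.41 CPM). Ccng1 reached 129 CPM in a Q140 Pms1 het animal (others 109 to 116 CPM) and Zmat3 121 CPM in a Q140 animal (others 108 to 113 CPM). Phlda3 reached 19.7 CPM in the cortex of a Pms1 het animal (others 16.4 to 17.7 CPM), the animal whose striatal Bbc3 also stood apart. Bax reached 29.5 CPM in a WT animal (others 24.2 to 26.5 CPM). What sets these animals apart was not tested.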

How the results depend on the processing

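Called members kept their direction under every alternative run, with 189 of 243 values on the same side of the threshold and 54 no longer past it. Of 327 counts of called members 272 were within 1.5 times the count given above and 55 were not, as follows, and the cause was not tested unless the setting removes animals. Without scaling factors, or with limma on FPKM at either pseudocount, 5 members were called for Q140 against WT striatum (4 higher and 1 lower without scaling factors, against 2 and 1), Bax and Ccng1 being added. For the pooled knock-in effect in striatum these settings called 5, for the pooled Pms1 null effect 2, for Q140 Pms1 het against Pms1 het 1 and for the interaction with Pms1 null 1, and for the pooled knock-in effect in cortex 0. Without scaling factors 2 members differed between the tissues for Q140 and 2 for the pooled knock-in effect. DESeq2 called 2 members for the pooled Pms1 null effect in striatum, 1 for the interaction and 1 for Q140 Pms1 het against Pms1 het in cortex. A fit without robust settings called 1 for the interaction. The late-code term left 1 for Pms1 null against WT striatum, 0 for the pooled Pms1 null effect in striatum, 1 for the interaction, and 0 for Pms1 null against WT and for the pooled Pms1 null effect in cortex. With the first code number as a random block (limma-voom), 1 member was called for Pms1 null against WT cortex and 0 for the pooled knock-in effect there. Females alone gave 1 for Q140 against WT striatum, 1 for Pms1 null against WT cortex, 0 for the pooled knock-in effect and 1 for the pooled Pms1 null effect in cortex. Males alone gave 1 for Q140 against WT, 0 for Pms1 null against WT, 1 for Q140 Pms1 het against Pms1 het, 0 for Q140 Pms1 null against Pms1 null, 1 for the pooled knock-in and 0 for the pooled Pms1 null effect in striatum. In cortex they gave 0 for Pms1 null against WT, 1 for Q140 Pms1 het against Pms1 het, and 0 for both pooled effects. Late codes alone left 0 for Q140 against WT striatum, where only 3 Q140 males and 2 WT females remain and the count says little, and 0 for Pms1 null against WT in either tissue, against the same 2 WT females. Without the 3 Pms1 null animals of number 22, 0 were called for Pms1 null against WT in either tissue, 0 for Q140 Pms1 null against Pms1 null striatum, 0 for the pooled knock-in and 1 for the pooled Pms1 null effect in cortex. With the animal as replicate block, 1 member differed between the tissues for Q140 and 1 for the pooled knock-in effect, and Trp53inp1 was added between WT striatum and WT cortex. With the late-code term removed from log2 CPM, 7 pairs of members in striatum and 6 in cortex passed, and on FPKM 6 in striatum and 4 in cortex. Eda2r is limited by depth, since no cortical library held more than 18 of its counts.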
